A study of Mus musculus with 9 samples.

Results

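Matrix metalloproteinases (MMPs) and their tissue inhibitors (TIMPs) were followed as 10 genes among the 55468 in the deposited expression table of mouse intestinal tract. The set was defined by gene name and held the secreted enzymes Mmp2, Mmp3, Mmp8, Mmp9, Mmp10 and Mmp13, the membrane-bound enzyme Mmp14, and the inhibitors Timp1, Timp2 and Timp3. Each name matched 1 row, so all 10 were found. Most of the tissue came from mice drinking dextran sulfate sodium (DSS), which damages the gut epithelium and sets off colitis, on a normal diet or on diets short of methionine, of tryptophan and niacin, or of all 3.

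The groups were these, with 1 library in each. At day 28, 1K had been on a methionine-deficient diet, 2K on a diet deficient in tryptophan and niacin, and 3K on a diet deficient in all 3 nutrients, against R on a normal diet. At day 33, 1KR, 2KR and 3KR had been returned at day 28 from those same diets to normal feed, against RR, kept on normal feed throughout. All 8 of these drank DSS freely from day 18. The control C had a normal diet and no DSS, and was collected at day 34. The sources used here give no strain, sex, age or stretch of gut, nor the number of animals behind a library.

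MMPs are zinc-dependent enzymes that cut collagens, gelatin, proteoglycans and other matrix proteins, and also clip cytokines and chemokines. Most are secreted as inactive precursors, are switched on by other proteases, and are blocked by TIMPs, which sit in the active site. In injured gut they come from neutrophils, macrophages, fibroblasts and epithelium at ulcer edges, and they take part both in tissue damage and in repair.

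Levels are FPKM, fragments scaled by transcript length and by the library's mapped fragments, which can be compared between genes because they are per length. Differences between 2 libraries are given on the log2(FPKM + 0.5) scale, which understates the change of low genes. A gene was counted in a comparison if it had at least 1 FPKM in either library, and it was called when the libraries were at least 2-fold apart on that scale. With 1 library per condition there is no replicate error, so each difference describes those 2 libraries and carries no p-value. In bulk tissue, fewer cells of a type and less RNA per cell cannot be told apart.

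Several libraries stood apart in ways that touch these genes. All 10 intestinal epithelium markers had at least 1 FPKM in every library, but their sums differed. They summed to 4262 FPKM in 1K, 1971 in 2K and 2408 in 3K, against 3956 in R. After refeeding the sums were 4502 in 1KR, 4356 in 2KR and 3233 in 3KR, against 3722 in RR. In C the sum was 3767. The sum of 11 pancreatic acinar markers was 37024 FPKM in 2K, 46832 in 3K and no more than 27.0 in any other library. The sum of the 9 stomach markers found was 18337 FPKM in 2K, 57.8 in 3K and no more than 2.3 in the others. The 12 liver markers summed to 33024 in 2K and at most 1752 elsewhere. The 5 colon markers summed to 1294 FPKM in 3KR and no more than 127 in any other library. Most of the 3KR sum was Car1, a carbonic anhydrase of colon epithelium, at 1151 FPKM in 3KR and at most 2.56 in the other 8 libraries. Aqp8 was at 14.8 FPKM in 3KR and at most 3.34 elsewhere. Car4 did not set 3KR apart, at 128 FPKM in 3KR and 125 in 1KR, and Hoxb13 and Hoxd13 were under 1 FPKM in every library. Markers of the gut segments differed too. The 4 ileum markers summed to 507 FPKM in 1K, 2.5 in 2K and 102 in 3K, against 2314 in R, to 95.4 in 1KR, 343 in 2KR and 880 in 3KR, against 188 in RR, and to 3838 in C. The 5 markers of duodenum and jejunum summed to 3648 FPKM in 1K, 669 in 2K and 1420 in 3K, against 234 in R, to 2525 in 1KR, 1685 in 2KR and 177 in 3KR, against 2137 in RR, and to 121 in C. Where these sums differ, segment and diet cannot be told apart, and the part of the segment in the levels of the 10 genes was not tested. Estimated depth ran from 14.2 M fragments in 3KR to 31.1 M in 2KR.

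All 10 genes reached their highest level after the diet deficient in all 3 nutrients, 5 of them at day 28 (3K) and 5 after refeeding (3KR). Mmp2, Mmp3, Mmp14, Timp2 and Timp3 peaked in 3K. Mmp8, Mmp9, Mmp10, Mmp13 and Timp1 peaked in 3KR. At the other end, 5 genes were lowest in 1KR, 3 in 1K and 2 in C. Without 3KR, 8 of the 10 were highest in 3K, while Mmp13 and Timp1 were highest in 2K. The share of all genes with their highest or lowest level in these libraries was not computed. These counts therefore stand without a share over all genes beside them.

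**Figure D1:**
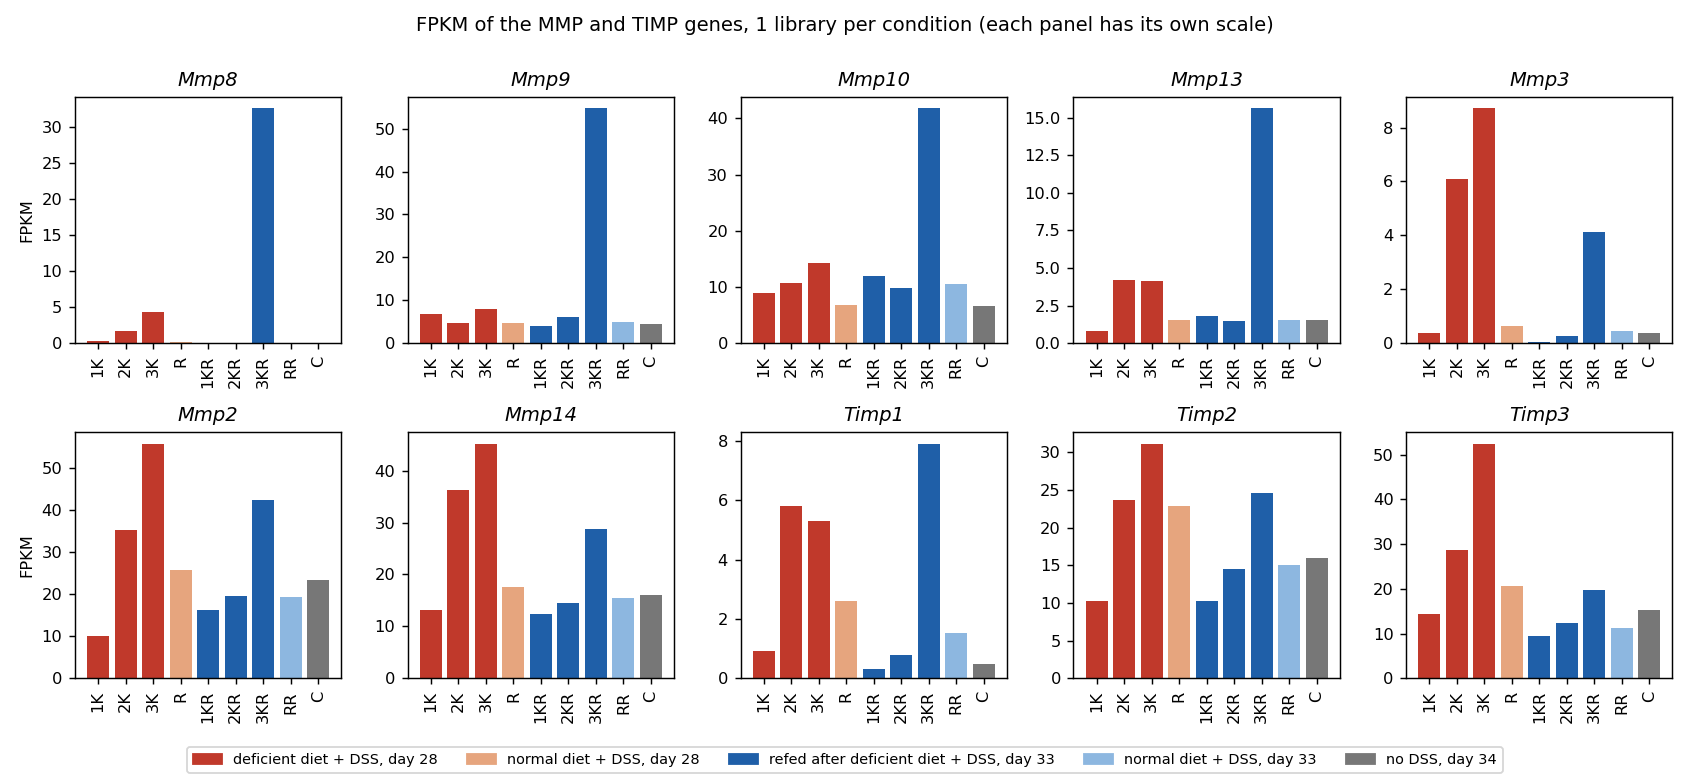
FPKM of each of the 10 genes (y axis, linear, its own scale per panel) in the 9 libraries (x axis), 1 bar per library, coloured by diet and day. Mmp8, Mmp9, Mmp10 and Mmp13 have their tallest bar in 3KR, at 32.6, 54.7, 41.8 and 15.6 FPKM, and Mmp2, Mmp14 and Timp3 in 3K, at 55.7, 45.1 and 52.4 FPKM.

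Mmp8 is the collagenase that neutrophils store in their granules. It was at 0.295 FPKM in 1K, 1.67 in 2K and 4.37 in 3K, against 0.156 in R, at 0.054 in 1KR, 0.079 in 2KR and 32.6 in 3KR, against 0.014 in RR, and was listed at 0 in C. The libraries above 1 FPKM were 2K, 3K and 3KR. The estimated fragments behind these values were about 1124 in 3KR, 280 in 3K and 94 in 2K, but 11 in R, 1 in RR and 0 in C. A count of 0 allows up to 3 fragments, or 0.0472 FPKM in C, so the low values give no usable fold. Mmp9, gelatinase B, which neutrophils also carry, was at 6.87 FPKM in 1K, 4.62 in 2K and 7.96 in 3K, against 4.65 in R, at 4.03 in 1KR, 6 in 2KR and 54.7 in 3KR, against 4.87 in RR, and at 4.48 in C. The 8 libraries other than 3KR lay between 4.03 and 7.96 FPKM, and 3KR stood alone above them.

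The neutrophil markers other than Mpo were, like Mmp8 and Mmp9, highest in 3KR. Outside 3KR, Mmp9 did not follow them, at 4.62 FPKM in 2K and 4.65 in R. The 10 markers summed to 16.6 FPKM in 1K, 137 in 2K and 174 in 3K, against 23.9 in R, to 9.8 in 1KR, 12.2 in 2KR and 2446 in 3KR, against 11.2 in RR, and to 3.7 in C. In 3KR, 8 of the 10 had at least 1 FPKM and none (0) was at 0, with S100a8, a calprotectin subunit, at 1273 FPKM, and Cxcr2, the receptor for neutrophil-attracting chemokines, at 15.2. Elane, neutrophil elastase, which is transcribed in bone marrow precursors, was at 0.41 FPKM in 3KR. Mpo, myeloperoxidase, was at 0.33 FPKM in 3KR and was highest in 2K, at 0.56. Elane and Mpo were at 0 in 1K, and Elane also in C. The part of these cells in the levels of Mmp8 and Mmp9 was not tested.

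Mmp10, stromelysin 2, which wound-edge epithelium makes, was at 8.94 FPKM in 1K, 10.6 in 2K and 14.3 in 3K, against 6.86 in R, at 11.9 in 1KR, 9.73 in 2KR and 41.8 in 3KR, against 10.5 in RR, and at 6.65 in C. It was the only one of the stromelysins and collagenases here to exceed 5 FPKM in all 9 libraries, and its levels outside 3KR lay between 6.65 and 14.3 FPKM. Mmp13, collagenase 3, was at 0.83 FPKM in 1K, 4.19 in 2K and 4.16 in 3K, against 1.56 in R, at 1.83 in 1KR, 1.45 in 2KR and 15.6 in 3KR, against 1.52 in RR, and at 1.52 in C. The normal-diet libraries R, RR and C were nearly equal for Mmp13, with or without DSS. Mmp3, stromelysin 1, a fibroblast product that can activate other MMP precursors, was at 0.359 FPKM in 1K, 6.08 in 2K and 8.71 in 3K, against 0.633 in R, at 0.057 in 1KR, 0.273 in 2KR and 4.12 in 3KR, against 0.461 in RR, and at 0.388 in C. Like Mmp8, Mmp3 was above 1 FPKM in 2K, 3K and 3KR only, but unlike Mmp8 it was higher in 3K than in 3KR.

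Mmp13, Mmp3, Mmp10 and Mmp8 lie in this order, all on the plus strand, within a cluster of 10 MMP genes over 427 kb of chromosome 9 (GRCm38, GENCODE M21). Mmp13 spans 7272514 to 7283331, Mmp3 7445822 to 7455975, Mmp10 7502352 to 7510240 and Mmp8 7558456 to 7568485. Their promoters are shown because these 4 genes of the cluster were each at least 2-fold higher in 3KR than in RR. Mmp3 was nonetheless highest in 3K, and other cluster genes lie among the 4. A further reason is that textbook accounts place an AP-1 site, bound by Fos and Jun proteins, near the start of inducible MMP genes. The 150 bases before each RefSeq start (RefSeq promoter table, GRCm38.p6) are given 5′ to 3′, with matches to the AP-1 motif in capitals, and those to the TATA box as well. The AP-1 motif was searched as TGANTCA. The TATA box was searched as TATAAA.
Mmp13, chr9:7272364-7272513, plus strand: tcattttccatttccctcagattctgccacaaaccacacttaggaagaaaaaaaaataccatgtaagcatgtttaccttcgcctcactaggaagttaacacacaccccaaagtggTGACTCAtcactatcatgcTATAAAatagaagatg
Mmp3, chr9:7445672-7445821, plus strand: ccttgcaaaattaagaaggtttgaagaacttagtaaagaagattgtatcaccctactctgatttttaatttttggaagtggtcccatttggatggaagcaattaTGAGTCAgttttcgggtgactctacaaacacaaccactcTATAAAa
Mmp10, chr9:7502192-7502341, plus strand: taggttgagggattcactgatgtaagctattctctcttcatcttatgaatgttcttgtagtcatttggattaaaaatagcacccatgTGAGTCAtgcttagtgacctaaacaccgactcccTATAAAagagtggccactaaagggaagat
Mmp8, chr9:7558279-7558428, plus strand: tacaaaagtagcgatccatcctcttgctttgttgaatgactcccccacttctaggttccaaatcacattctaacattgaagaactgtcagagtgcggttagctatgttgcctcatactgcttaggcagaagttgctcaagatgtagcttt
In the 250 bases before the start, searched on both strands, the AP-1 letters began 35 bases upstream in Mmp13, 46 in Mmp3 and 63 in Mmp10, each followed by TATAAA. The Mmp8 window held neither. AP-1 letters were in 6.75% of 32851 promoter windows of that length, TATAAA in 12.4% and both in 1.21%. Of the 10 genes, 8 had a promoter in the table (Mmp2 and Mmp9 did not), and the remaining 4 windows, of Mmp14 and the 3 TIMPs, held no AP-1 or TATA letters. The STAT letters TTCNNNGAA (7.02% of windows) and the NF-kB motif (17.6%) were in none (0) of the 8. TGANTCA reads the same on both strands, the motifs do not overlap each other in these windows, and a match of letters is a description and not a binding site.

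The other expressed genes of the cluster differed from these 4. Of the 10, 6 had at least 1 FPKM in some library, and the other 4 (Mmp1a, Mmp1b, Mmp20 and Mmp27) stayed at or under 0.307. Mmp12, macrophage elastase, which lies between Mmp13 and Mmp3, was at 1.67 FPKM in 1K, 3.38 in 2K and 2.59 in 3K, against 14.0 in R, at 0.338 in 1KR, 3.46 in 2KR and 0.879 in 3KR, against 11.1 in RR, and at 0.624 in C. It was highest in both DSS libraries from the normal diet and lower in all 6 from deficient or formerly deficient diets. Mmp7, matrilysin, which Paneth cells use to activate defensins in the mouse, was at 77.5 FPKM in 1K, 17.6 in 2K and 72.3 in 3K, against 152 in R, at 61.6 in 1KR, 152 in 2KR and 35.3 in 3KR, against 84.4 in RR, and at 138 in C. Mmp7 was thus lowest in 2K and 3KR, where Mmp8 and Mmp13 were among the 3 highest. AP-1 letters were also in 1 of 2 promoter windows of Mmp12 and of Mmp7. With TATAAA, they were in those of Mmp1a, Mmp1b and Mmp20, which were at or near 0 FPKM. For Mmp7, AP-1 letters began 63 bases upstream and TATAAA 123 and 26 bases upstream, each in 1 of its 2 windows. Of 15 other family genes with a promoter in the table, 5 held AP-1 letters and 5 held TATAAA, so this layout was not limited to the genes that were high in 3KR. Among all 18 other MMP and TIMP family genes, 0 of 11 counted were at least 2-fold higher and 2 lower in 3K than in R, and 0 of 10 were higher and 2 lower in 3KR than in RR (2 higher with either other scaling). Over all genes, 11.6% were higher and 13.4% lower in 3K, and 11.4% higher and 9.73% lower in 3KR, so these counts are near the background.

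**Figure D2:**
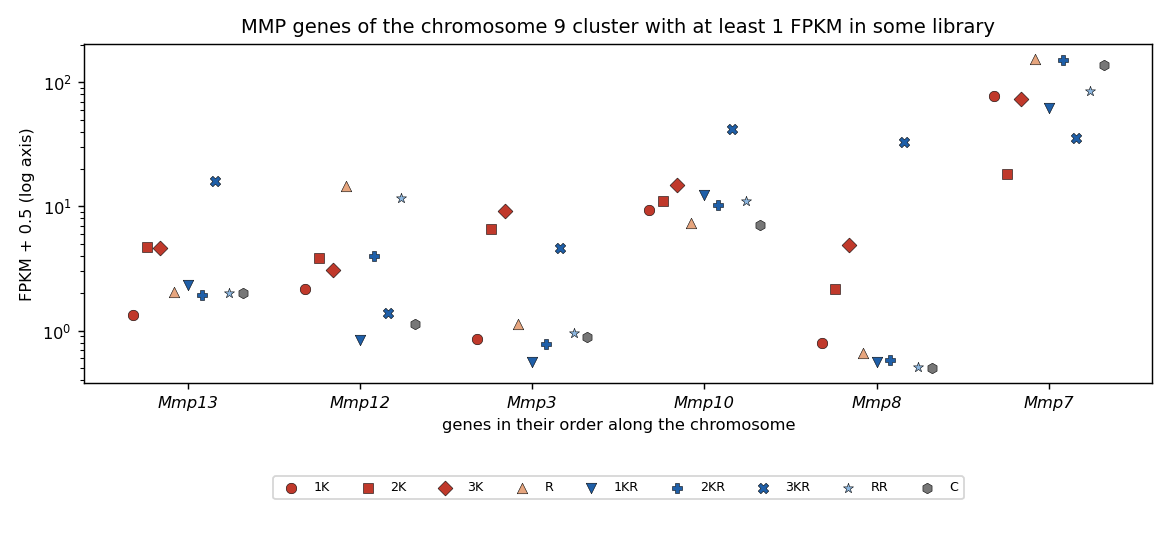
FPKM + 0.5 (y axis, log scale) of the 6 MMP genes of the chromosome 9 cluster with at least 1 FPKM in some library, in their order along the chromosome, 1 symbol per library. The 3KR symbol is the highest for Mmp13, Mmp10 and Mmp8, at 15.6, 41.8 and 32.6 FPKM, but lies near the bottom for Mmp12 and Mmp7, at 0.879 and 35.3 FPKM.

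The gelatinase Mmp2 (chromosome 8, 92827291 to 92853420) is made mainly by fibroblasts and is activated at the cell surface by Mmp14 with the help of Timp2. Mmp2 was at 10.2 FPKM in 1K, 35.2 in 2K and 55.7 in 3K, against 25.8 in R, at 16.2 in 1KR, 19.5 in 2KR and 42.3 in 3KR, against 19.4 in RR, and at 23.3 in C. Mmp14 was at 13.2 FPKM in 1K, 36.2 in 2K and 45.1 in 3K, against 17.7 in R, at 12.4 in 1KR, 14.5 in 2KR and 28.7 in 3KR, against 15.4 in RR, and at 16.1 in C. Both had the same 3 libraries on top, 3K, then 3KR or 2K. Timp2 was at 10.2 FPKM in 1K, 23.7 in 2K and 31.1 in 3K, against 22.9 in R, at 10.3 in 1KR, 14.6 in 2KR and 24.5 in 3KR, against 15.1 in RR, and at 15.9 in C. The Timp2 level in 2K differed from R by 0.05 on the log2 scale.

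Timp1, the inhibitor that inflammatory cytokines induce, had 0.91 FPKM in 1K, 5.82 in 2K and 5.32 in 3K, against 2.60 in R, 0.335 in 1KR, 0.785 in 2KR and 7.90 in 3KR, against 1.52 in RR, and 0.492 in C. It was the scarcest of the 3 inhibitors of the set in every library. About 9 fragments lay behind its value in 1KR, 11 in C and 99 in 3KR. Timp3, which binds to the matrix and also inhibits the cytokine-shedding enzyme ADAM17, had 14.3 FPKM in 1K, 28.6 in 2K and 52.4 in 3K, against 20.6 in R, 9.59 in 1KR, 12.4 in 2KR and 19.8 in 3KR, against 11.3 in RR, and 15.3 in C. Timp3 alone was lower in 3KR than in R. The other genes lie apart from the cluster: Mmp9 on chromosome 2 (164940780 to 164955850), Mmp14 on chromosome 14 (54431612 to 54445364), Timp1 on chromosome X (20870166 to 20874735), Timp2 on chromosome 11 (118301069 to 118355740) and Timp3 on chromosome 10 (86300372 to 86349506), all in GRCm38. Timp1 lies within Syn1 and Timp3 within Syn3, each on the opposite strand, and Cep295nl, at 0.151 to 1.47 FPKM, lies within Timp2 on the same strand. Whether fragments were counted by strand is not stated in the sources used. Syn1 was at 0.431 to 1.77 FPKM and Syn3 at 0.752 to 1.99.

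Fibroblast markers did not follow Mmp2, Mmp14 and the TIMPs in every library. The 10 markers summed to 112 FPKM in 1K, 324 in 2K and 413 in 3K, against 356 in R, to 163 in 1KR, 253 in 2KR and 439 in 3KR, against 248 in RR, and to 286 in C. Between 3K and R, none (0) of the 10 was at least 2-fold higher and 3 were lower. The background there was 11.6% of all genes higher and 13.4% lower. The 3 lower were Col1a1, Lum and Pi16. Col1a1, a collagen chain, was at 19.7 FPKM in 3K and 46.7 in R. Lum was at 9.19 FPKM in 3K and 23.1 in R, and Pi16 at 1.14 in 3K and 3.16 in R. Pdgfra, Pdgfrb, Dcn, Cd34 and Thy1 were above R within 2-fold, with Pdgfra at 41.3 FPKM in 3K and 20.5 in R. Dpt and Col1a2 were below R within 2-fold. Endothelial markers had 4 of 7 at least 2-fold higher in 3K than in R and none (0) lower, with Pecam1 at 33.0 FPKM in 3K and 13.2 in R. The pancreatic acinar RNA of 3K and 2K stood beside these levels, and its part in them was not tested.

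Set against R, the triple-deficient diet at day 28 had more of the 10 genes called than the other diets of that day. Of them, 7 were at least 2-fold higher in 3K (Mmp2, Mmp3, Mmp8, Mmp10, Mmp13, Mmp14 and Timp3) and none (0) lower, against 11.6% of 18873 genes higher and 13.4% lower. The log2 differences were 3.02 for Mmp3, 2.89 for Mmp8, 1.33 for Mmp14, 1.33 for Timp3, 1.18 for Mmp13, 1.09 for Mmp2 and 1.01 for Mmp10. Mmp9 (0.72), Timp1 (0.91) and Timp2 (0.44) were also above R but within 2-fold. The median over the 10 was 1.14 and over all genes counted 0.00. Mmp3 and Mmp8 were counted only because of their level in 3K. Scaling to the sum of coding genes outside the organ lists left 5 of the 7, without Mmp2 (0.91) and Mmp10 (0.84).

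In 2K, from the diet short of tryptophan and niacin, 5 of the 10 lay at least 2-fold above R and none (0) below, against 14.7% of 19035 genes higher and 14.1% lower. Mmp3 differed by 2.54 on the log2 scale, Mmp8 by 1.72, Mmp13 by 1.19, Timp1 by 1.02 and Mmp14 by 1.01. Mmp9 differed by -0.01, and Timp2 by 0.05 as deposited but by -0.29 with the coding-sum scaling. Mmp3 and Mmp8 were counted only because of their level in 2K. Mmp3, Mmp8 and Mmp13 were called with median-of-ratios scaling (3 genes), and Mmp3 and Mmp8 with the coding-sum scaling (2 genes).

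On the diet short of methionine alone, Mmp2 and a pair of inhibitors were lower. Of 8 genes counted in 1K against R, 3 lay at least 2-fold below R and none (0) above, against 8.63% of 18165 genes lower and 7.17% higher. These were Mmp2 (-1.30), Timp1 (-1.14) and Timp2 (-1.12), and Mmp9 (0.52) and Mmp10 (0.36) were the ones above R, though Mmp10 was below it (-0.15) with the coding-sum scaling. Timp1 was counted only through R. Fibroblast markers were lower beside them, with 7 of 10 at least 2-fold lower, and macrophage markers with 6 of 10. Set directly against 1K, 8 of the 10 lay at least 2-fold higher in 3K and none (0) lower, against 15% of 18573 genes higher and 14.9% lower, with 3.42 for Mmp3 and 2.40 for Mmp2. Of the 8, Mmp3, Mmp8, Mmp13 and Timp1 were under 1 FPKM in 1K and were counted only through 3K. Against 2K, 3K had 1 higher, Mmp8 (1.17), and none (0) lower, against 5.99% of 18485 genes higher and 9.42% lower. 1K, 2K and 3K share the control R, so these comparisons are not independent of each other.

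**Figure D3:**
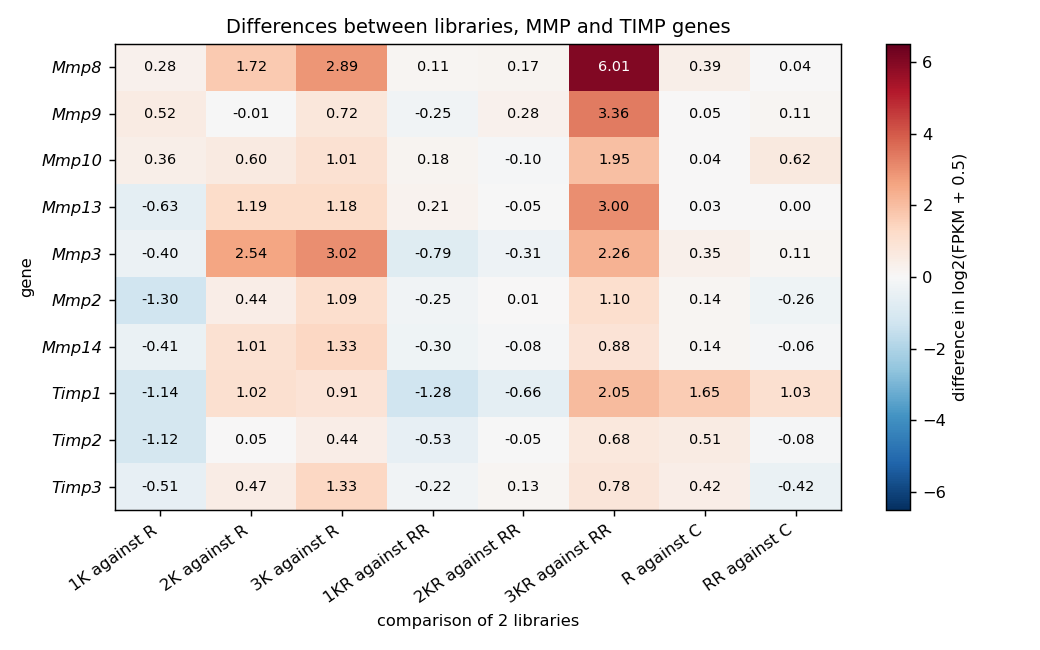
Difference in log2(FPKM + 0.5) between 2 libraries (colour and printed value) for each of the 10 genes (rows) in 8 comparisons (columns). The column of 3KR against RR holds the largest value, 6.01 for Mmp8, and all its 10 values are above 0. In the column of 1K against R, the genes other than Mmp8, Mmp9 and Mmp10 lie below 0.

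After refeeding, only the formerly triple-deficient library differed widely from RR. In 3KR, 7 of the 10 genes were at least 2-fold higher and none (0) lower, against 11.4% of 18263 genes higher and 9.73% lower. The differences were 6.01 for Mmp8, 3.36 for Mmp9, 3.00 for Mmp13, 2.26 for Mmp3, 2.05 for Timp1, 1.95 for Mmp10 and 1.10 for Mmp2, and Mmp14 (0.88), Timp3 (0.78) and Timp2 (0.68) were within 2-fold. The median over the 10 was 2.00, against 0.03 over all genes counted, and Mmp3 and Mmp8 were again counted only through 3KR. In 1KR, 1 of 8 genes counted was lower (Timp1, -1.28) and none (0) higher, against 3.51% of 17070 genes lower and 2.47% higher. Timp1 was counted there only through RR, and the call was lost with a pseudocount of 1 or a floor of 5 FPKM. In 2KR none (0) of 8 was called in either direction, against 2.67% of 17035 genes higher and 3.67% lower. All 8 neutrophil markers counted were at least 2-fold higher in 3KR than in RR. Of these, S100a9, Cxcr2, Ngp, Ltf and Camp were under 1 FPKM in RR and were counted only through 3KR. Smooth muscle markers were higher (4 of 8) with none (0) lower. Car1 was at 1151 FPKM in 3KR and at 0 in RR, while Car4, another colon marker, was at 128 in 3KR and 111 in RR. All 5 duodenum and jejunum markers were at least 2-fold lower in 3KR than in RR. Their part in the levels of these genes was not tested.

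From day 28 to day 33 the diets parted. In 2KR against 2K, 6 of the 10 genes were at least 2-fold lower and none (0) higher, against 19% of 18395 genes lower and 13.5% higher, namely Mmp3 (-3.09), Timp1 (-2.30), Mmp8 (-1.90), Mmp14 (-1.29), Mmp13 (-1.27) and Timp3 (-1.17). Mmp3, Mmp8 and Timp1 were under 1 FPKM in 2KR and were counted only through 2K. In 3KR against 3K, Mmp8 (2.76), Mmp9 (2.71), Mmp13 (1.79) and Mmp10 (1.51) were at least 2-fold higher and Timp3 (-1.38) lower, against 13.3% of 18879 genes higher and 11.7% lower. Neither RR against R nor 1KR against 1K had a gene called: 0 of 8 against 5.42% of 18003 genes higher and 5.29% lower, and 0 of 7 against 6.57% of 17495 genes higher and 7.79% lower. The pancreatic acinar and stomach markers of 2K summed to 7.9 and 0.6 FPKM in 2KR, and their part in these differences was not tested.

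With DSS on the normal diet, 1 of the 10 genes was called. Timp1 was higher in R (1.65) and in RR (1.03) than in the shared control C, while no other gene was called in either comparison. The background was 4.43% of 18222 genes higher and 3.22% lower in R, and 6.71% of 18018 genes higher and 5.81% lower in RR. In each, 8 of the 10 were counted, Timp1 only through its level with DSS, since it was at 0.492 FPKM in C. Mmp2, Mmp9, Mmp10, Mmp13 and Mmp14 were at most 0.14 above C on the log2 scale in R. The call in RR was lost with either other scaling (0.97 and 0.91), and about 11 fragments lie behind the value in C.

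Transcripts of the 6 secreted enzymes of the set were summed and set beside those of the inhibitors, a grouping made after the values were seen. The 6 secreted MMPs summed to 27.5 FPKM in 1K, 62.4 in 2K and 95.2 in 3K, against 39.7 in R, to 34.1 in 1KR, 37.1 in 2KR and 191 in 3KR, against 36.8 in RR, and to 36.3 in C. The 3 TIMPs summed to 25.4 FPKM in 1K, 58.1 in 2K and 88.8 in 3K, against 46.0 in R, to 20.2 in 1KR, 27.7 in 2KR and 52.2 in 3KR, against 27.9 in RR, and to 31.7 in C. The ratio of the sums was thus 3.66 in 3KR and between 0.862 (R) and 1.69 (1KR) in the other 8 libraries. This order rests on the 6 genes chosen: with Mmp7, an abundant secreted MMP outside the set, added, the ratio was 4.34 in 3KR, below 6.82 in 2KR and 5.51 in C. Mmp8, Mmp9, Mmp10 and Mmp13 made up 75.7% of the secreted MMP sum in 3KR and 32.4% in 3K, where Mmp2 alone made up 58.5%. Timp1 was 15.1% of the TIMP sum in 3KR and 5.98% in 3K. These are ratios of RNA levels, which do not give protein or activity.

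**Figure D4:**
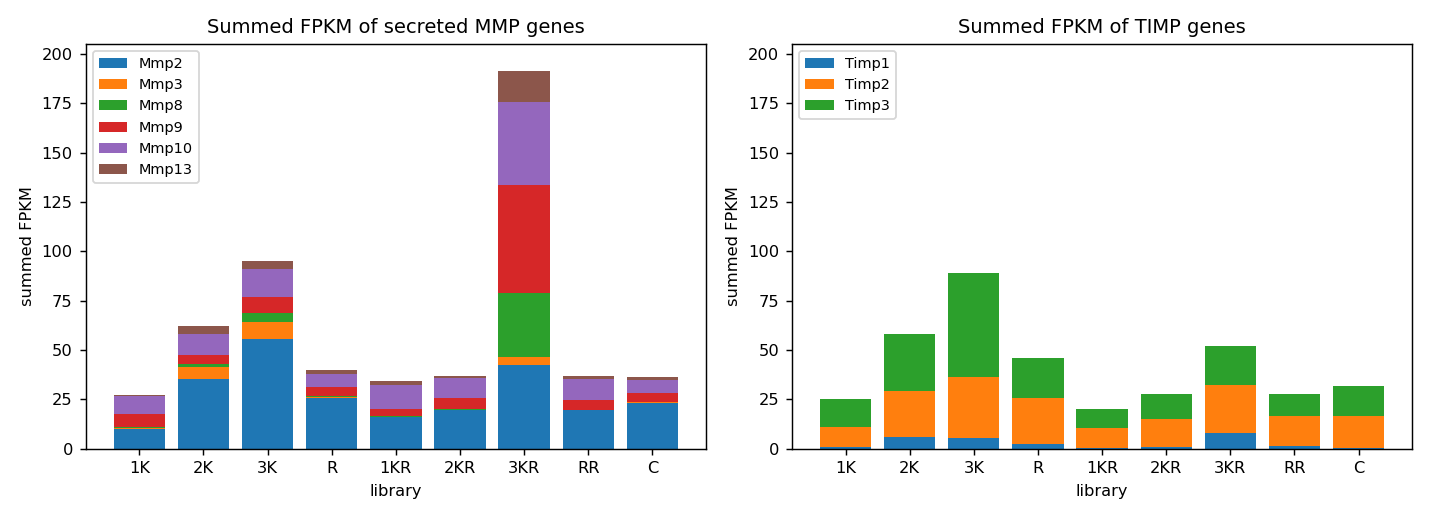
Summed FPKM (y axis, linear, the same scale in both panels) of the 6 secreted MMP genes and of the 3 TIMP genes in each of the 9 libraries, with the share of each gene in colour. The secreted MMP bar of 3KR reaches 191 FPKM, mostly Mmp9, Mmp2, Mmp10 and Mmp8, beside a TIMP bar of 52.2 FPKM, while in 3K the bars are 95.2 and 88.8 FPKM.

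Proteases that cut MMP precursors into active enzymes, and the inhibitors of those proteases, were next compared. The list of MMP activation and the plasminogen system had 5 of 10 members above 2-fold and none (0) below in 3KR against RR (median 1.13). Serpine2, an inhibitor of thrombin and plasminogen activators, was at 56.8 FPKM in 3KR and 2.14 in RR. Plaur, the urokinase receptor, was at 74.5 FPKM in 3KR and 3.68 in RR. In 3K against R the list had 5 of 11 higher and none (0) lower (median 0.91), with Serpine2 at 23.1 FPKM in 3K and 3.21 in R. Plat, tissue plasminogen activator, was at 23.2 FPKM in 3K and 3.77 in R, and Furin, which activates Mmp14, at 134 in 3K and 56.2 in R. In 2K, Plg, plasminogen itself, was at 354 FPKM against 0.88 in R, beside the liver markers. In 1K against R, 2 of 10 were higher and none (0) lower, which became 0 and 1 with median-of-ratios scaling and 0 and 3 with the coding-sum scaling.

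Cytokines and transcription factors known to induce MMP genes were higher in part. Against RR, 3KR had 9 of 23 above 2-fold and 1 below, where 11.4% of all genes were higher and 9.73% lower. Of the 9, Osm, Il11, Fosl1, Il6 and Etv4 were under 1 FPKM in RR and were counted only through 3KR. Il1b, a cytokine of myeloid cells, was at 248 FPKM in 3KR and 2.88 in RR. Osm, oncostatin M, was at 27.9 FPKM in 3KR and 0.11 in RR, and Fosl1, an AP-1 subunit, at 8.42 in 3KR and 0.22 in RR. In 3K against R, 8 of 22 lay above 2-fold and 1 below (median 0.65), where 11.6% of all genes were higher and 13.4% lower. Of the 8, Il1b, Il1a, Il6, Il11 and Osm were under 1 FPKM in R and were counted only through 3K. Il1b was at 13.7 FPKM in 3K and 0.97 in R, and Areg, amphiregulin, at 22.3 in 3K and 2.37 in R. Of the AP-1 genes, Jun was at 19.3 FPKM in 3KR and 22.5 in RR, and Fos was lower, at 44.8 in 3KR and 118 in RR. Il17a was listed at 0 in 8 of the 9 libraries.

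Genes of matrix proteins that these enzymes cut were mostly lower in 1K than in R. There, 17 of 21 were at least 2-fold lower and 2 higher (median -1.36, against 0.03 over all genes). Of all genes, 8.63% were lower and 7.17% higher in 1K. Col3a1, a fibrillar collagen, was at 23.7 FPKM in 1K and 237 in R. In 3K against R, 6 of 21 were higher and 3 lower, where 11.6% of all genes were higher and 13.4% lower. Col7a1 was counted only through 3K, and in 1K against R only through 1K. Col7a1, the anchoring fibril collagen of the epithelial base, was at 5.36 FPKM in 3K and 0.35 in R, and Vcan, versican, at 12.5 in 3K and 2.49 in R, but Lum, lumican, at 9.19 in 3K and 23.1 in R. In 3KR against RR, 10 of 20 were higher (15 with the coding-sum scaling) and none (0) lower. Of all genes, 11.4% were higher and 9.73% lower in 3KR as deposited. Vcan was at 13.7 FPKM in 3KR and 1.98 in RR, and Postn, periostin, at 35.5 in 3KR and 9.23 in RR.

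The genes whose pattern was most like each of the 10 were ranked by Pearson's r of log2(FPKM + 0.5) over the 9 libraries, among 9274 coding genes averaging 5 FPKM or more. The 9 points share 1 table, and 3KR weighs heavily in them, so r is also given without it, as a description. For Mmp8 the closest were the stefin genes Cstdc5 (r = 0.99, 0.98 without 3KR), Cstdc4 and Stfa3, cystatin-type protease inhibitors of neutrophils. Mmp9 was closest to Car1 (0.97, but 0.57 without 3KR) and Csf3r, the receptor for granulocyte colony-stimulating factor (0.97 and 0.45). Mmp10 was closest to Rpl10a, a ribosomal protein gene (0.97 and 0.87), and Timp1 to Ccnd3, a cyclin (0.96 and 0.94). Mmp13 was closest to Il1rn, the interleukin-1 receptor antagonist (0.98 and 0.94). Mmp3 was closest to Crispld2 (0.99 and 0.99) and Mmp14 (0.99 and 0.99), and Mmp14 to Crispld2 as well. Mmp2 was closest to Cep170, a centrosome protein gene (0.98 and 0.98), and then Col4a1, a basement membrane collagen (0.98 and 0.98), Timp2 to Slit3 (0.99 and 0.99) and Timp3 to Phf20l1 (0.99 and 0.99).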

How the data were processed

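RNA of the mouse intestinal tract was extracted, depleted of ribosomal RNA and made into stranded TruSeq libraries without selecting mRNA on beads, per the labels' protocols. HISAT2 (version not given) and Cuffdiff 2.2.1 were used on GRCm38, per the submitters' processing notes. The values the authors deposited are FPKM, 1 column per library, per the file headers. The annotation, the strand setting and any pooling of animals are not stated there.

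FPKM were used as deposited. Low FPKM of genes with a single GENCODE M21 transcript fell in steps of whole fragments, from which the depth of each library was estimated (Python 3.11.15, pandas 2.3.3, NumPy 2.4.6). No test was possible with 1 library per condition. In 14 comparisons, log2(FPKM + 0.5) differences were taken and genes at least 2-fold apart were counted among those with at least 1 FPKM in either library. The counting and scaling steps were tested on simulated data. All 10 genes were named. From each of 5 gene lists and 13 marker lists, at most 4 genes with the largest difference in a comparison were taken. Fos, Jun, Il17a, Cxcr2, Elane, Mpo, Adamts10 and Adamts12 were added after their values were seen. Beyond this rule, all fibroblast markers (3K against R), all colon markers and the chromosome 9 cluster genes were named. Some genes counted only through 1 library were named as well. The members and lists were chosen with earlier results of these data known. Alternatives were 2 other pseudocounts, no floor or one of 5 FPKM, median-of-ratios scaling, and scaling to a common sum over coding genes outside the mitochondrion and the acinar, stomach and liver lists (coding-sum scaling).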

Additional observations from a re-analysis of the deposited data

Results flagged for a closer look

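Mmp8 and Mmp13 were at least 2-fold apart between day 33 and day 28 in opposite directions on different diets. Mmp8 differed by 2.76 on the log2(FPKM + 0.5) scale in 3KR against 3K and by -1.90 in 2KR against 2K. Mmp13 differed by 1.79 in 3KR against 3K and by -1.27 in 2KR against 2K. Each contrast has 1 library per side, so the difference between the diets was not tested. The neutrophil markers went the same ways, with 7 of 8 at least 2-fold higher in 3KR than in 3K, against 13.3% of all genes. In 2KR against 2K, 5 of 6 were at least 2-fold lower, against 19% of all genes. Camp was counted only through 3KR and Ngp only through 2K. The part of neutrophils in these values was not tested.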

How the results depend on the processing

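No paired analysis was possible because each condition has 1 library, and for the same reason no library could be left out of a comparison. Of 140 differences of single genes, each recomputed with 2 other pseudocounts and 2 scalings, none (0) of the 560 values reversed a call, and 23 crossed the 2-fold line, 10 of them with the coding-sum scaling. Of the counts of genes at least 2-fold apart, 69 were within 1.5 times the value reported and 15 were not. For 2K against R, 5 became 3 with a pseudocount of 1, a floor of 5 FPKM or median-of-ratios scaling, and 2 with the coding-sum scaling. For RR against C, 1 became 0 under the same 4 settings. For 1KR against RR, 1 became 0 with a pseudocount of 1 or a floor of 5 FPKM. For R against C, 1 became 0 with the floor of 5 FPKM. For 3K against 2K, 1 became 0 with that floor and 2 with the coding-sum scaling. For 1KR against 1K, 0 became 1 with a pseudocount of 0.1, and for RR against R, 0 became 1 with the coding-sum scaling. The floor and pseudocount remove or shrink low genes by construction. The cause of the changes with scaling was not tested. The ratio of secreted MMP to TIMP sums in 3KR was 3.66, and 4.34 with Mmp7 added, an alternative chosen after seeing the data, as were the scalings and the removal of 3KR that follow. All 10 genes stayed highest in 3K or 3KR under both scalings, and 8 were highest in 3K without 3KR. The share over all genes was not computed for these counts. With the coding-sum scaling the median of all genes was -0.48 in 1K against R (0.03 as deposited), -0.32 in 2K against R (0.02), -0.18 in 3K against R (0.00), 0.19 in 3KR against RR (0.03) and 0.31 in 3K against 1K (-0.04). The share of higher genes among all those called then became 14.0% for 1K (45.4% as deposited; 31.1% with median-of-ratios), 32.6% for 2K (51.0%), 34.5% for 3K (46.3%), 64.2% for 3KR (53.9%), 35.1% for RR against C (53.6%), 33.8% for RR against R (50.6%), 62.1% for 1KR against 1K (45.8%), 70.5% for 3K against 1K (50.1%; 61.5% with median-of-ratios) and 49.8% for 3K against 2K (38.9%). Depth limits Mmp8, Mmp3 and Timp1, with as few as 1, 3 and 9 estimated fragments in a library that detected them.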

Other observations

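The ADAMTS genes encode related proteases with a thrombospondin domain, and their patterns varied. Adamts4, an aggrecan-cutting enzyme, was at 0.94 FPKM in 1K, 7.40 in 2K and 11.5 in 3K, against 0.23 in R, at 0.22 in 1KR, 0.25 in 2KR and 2.76 in 3KR, against 0.34 in RR, and at 0.78 in C. Adamts1, a versican-cutting enzyme, was at 4.41 FPKM in 1K, 18.8 in 2K and 29.9 in 3K, against 3.74 in R, at 2.26 in 1KR, 2.19 in 2KR and 5.12 in 3KR, against 2.25 in RR, and at 2.17 in C. Both were highest in 3K, then 2K, like Mmp3 and Mmp14, and both were lower in 3KR than in 3K. Of the ADAM and ADAMTS list, 4 of 16 genes were at least 2-fold higher in 3K than in R and none (0) lower, where 11.6% of all genes were higher and 13.4% lower. Between 3KR and RR, 5 of 16 were higher in 3KR and none (0) lower, where 11.4% of all genes were higher and 9.73% lower. Adamts4 was under 1 FPKM in R and RR and was counted only through 3K and 3KR. Adamts12 was highest in 3KR, at 2.06 FPKM, and Adamts10 in C, at 8.08 FPKM. Adam8, a protease of leukocytes, was at 17.7 FPKM in 3KR and 3.24 in RR.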
